A study of Mus musculus with 41 samples.

Results

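The genes described here are the 7 members of the major histocompatibility complex (MHC) class II pathway H2-Aa, H2-Ab1, H2-Eb1, H2-DMa, H2-DMb1, Cd74, and Ciita. They were chosen by name among the 27197 genes of the count table, and all 7 were found. Poly-A RNA was sequenced from 15 libraries of a mouse mesothelioma model, 9 of whole tumors and 6 of cell lines grown out of tumor pieces. The question set by the 2 kinds of sample is how much class II mRNA is read in a whole tumor, which holds infiltrating and stromal cells, and how much in cultured tumor cells.

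Tumors were induced by injecting Adeno-Cre, an adenovirus with Cre under the ubiquitous CMV promoter, into the pleural space, so that any cell reached by the virus could recombine. BNC denotes the genotype Bap1-/-;Nf2-/-;Cdkn2ab-/- and NC the genotype Nf2-/-;Cdkn2ab-/-, so all groups lack Nf2 and Cdkn2ab. The mice were of mixed FVB, Bl6, and 129Ola background and received cyclosporine A, an immunosuppressant, around the time of infection. The lines were early-passage cultures, 3 BNC (JB81, JB91, and JB97) and 3 NC (JB84, JB87, and JB93). The labels list 5 BNC and 4 NC tumors but do not tie them to columns of the table, so the 9 tumors (B1, B2, B13, B14, B19, 22, B27, B28, and B45) were kept as 1 group.

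MHC class II molecules present peptides from the endosomal route to CD4+ T cells. An alpha and a beta chain (H2-Aa with H2-Ab1, or an E alpha chain with H2-Eb1) assemble on the invariant chain Cd74, cathepsins trim Cd74, and the H2-DM dimer exchanges the remaining fragment for peptide. Ciita is the coactivator on which transcription of these genes depends. It does not bind DNA itself but docks on RFX, CREB, and NF-Y proteins at the X and Y boxes of class II promoters. Dendritic cells, B cells, and macrophages express the pathway constitutively or upon activation, and many other cell types, mesothelial cells among them, can be induced to do so by interferon gamma.

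The promoter letters of H2-Eb1 and H2-Aa are shown first. Binding of Ciita or of the proteins it docks on was not measured, and a link of these letters to the levels was not tested. In the 120 bases before the start site in RefSeq (GRCm38.p6), H2-Eb1 matched both motifs searched and H2-Aa only the Y box. Capitals mark ACNGATG, a core of the X box, and TGATTGG, a Y box with its inverted CCAAT. The first sequence is chr17:34305747-34305866 on the plus strand and the second chr17:34287824-34287943 on the minus strand.
H2-Eb1: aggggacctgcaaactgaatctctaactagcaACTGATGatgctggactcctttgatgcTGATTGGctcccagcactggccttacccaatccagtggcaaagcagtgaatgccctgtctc
H2-Aa: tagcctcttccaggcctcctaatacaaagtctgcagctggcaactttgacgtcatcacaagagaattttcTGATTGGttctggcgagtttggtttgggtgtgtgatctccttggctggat
In H2-Eb1 the X core began 88 bases and the Y box 61 bases before the start site, with 20 letters between them. H2-DMb1 had the same order, at 91 and 63 bases, with 21 letters between. H2-Aa had a Y box 50 bases before the start, and the letters ACNGATG only on the opposite strand, 232 bases before the start. Only these exact letters were searched, so an X box with other letters would be missed in any window. Neither of the 2 windows of H2-DMa held either motif. Entries for 4 of the 7 genes were matched. Searched on both strands of all 32851 promoter windows of the same length, the X core was in 9.85% and the Y box in 7.82%, and the motifs share no overlap in the windows shown. Both motifs on the strand of the gene, X before Y with at most 30 letters between, were found in 6 windows (0.0183%). These were H2-Eb1, H2-DMb1, H2-Eb2, H2-DMb2, and the windows of BC051142 and G3bp2, the last with only 2 letters between the motifs. BC051142 lies in the same stretch of chromosome 17 as the class II genes. The gap limit was set after the spacing in H2-Eb1 had been seen.

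In the count data, the depth was between 8158740 and 21851974 counts per tumor and between 12377675 and 23936922 per line. Tumor B1 stood apart, with 38.5% of its counts on Gm42418 and Lars2, which overlap ribosomal RNA repeats, against 10.8% in B13 and 0.416 to 0.807% in the other 7 tumors. B2 held lung epithelial transcripts at a summed 45613 CPM (counts scaled to a common library size), so results were also computed without B1 and B2. Lines JB81 and JB91 differed by more than 2-fold in only 5 of 10511 genes and JB84 and JB93 in 8 of 10545 (biological coefficient of variation 0.0386 and 0.0578, against 0.311 to 0.806 between tumors), so the 6 lines may hold fewer than 6 independent cultures. As a check of the labelled tissue, all 8 mesothelial markers were read in tumors, at a summed 785 to 4768 CPM. In lines their sum was 2137 to 3051 CPM in NC, and only 130, 131, and 676 CPM in JB81, JB91, and JB97 (BNC). Over the 3 BNC lines the median of Wt1 was 126 CPM, and medians of the other markers were 0.0428 (Krt18) to 2.40 CPM (Upk3b). Krt18 had 0 counts in 1 BNC line. In JB81 and JB91 the check thus rested almost only on Wt1. All tumor columns share 1 numeric prefix in their names and all line columns carry 2 others. The labels do not say what the prefix stands for. Any batch that it marks cannot be told apart from the kind of sample.

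All 7 genes were higher in tumors than in lines (adjusted p under 0.01 and over 2-fold, edgeR), where 28.2% of the 15675 genes tested were higher in tumors and 11.5% lower. H2-Aa, H2-Ab1, H2-Eb1, and Ciita had at most 3 counts in every line and passed the filter for testing only through the tumors. Their direction was thus fixed in advance, and the levels are given as description. The same holds for each marker or related gene below with at most 3 counts in every line. The classical chains were read almost solely in tumors. In bulk RNA, fewer cells of a type and less RNA per cell cannot be told apart. H2-Aa, the A alpha chain (chromosome 17 of GRCm38, 34282744 to 34287823), had a lowest, median, and highest level of 124, 583, and 1406 CPM in the 9 tumors, and 0 counts in all 6 lines (CPM scaled by the trimmed mean of M values, TMM). H2-Ab1, the A beta chain (chromosome 17, 34257689 to 34269419), had 90.3, 486, and 1180 CPM in tumors, 0 counts in each BNC line, and 2 counts in JB84, 1 in JB87, and 1 in JB93 among NC lines. H2-Eb1, the E beta chain (chromosome 17, 34305867 to 34316674), had 50.8, 294, and 1199 CPM in tumors and at most 2 counts in any line. No line came near a tumor for any of these chains. With 3 counts per library taken as the floor, which is at most 0.229 CPM in these lines, the mean of the tumors was at least 2477-fold higher for H2-Aa, at least 2272-fold higher for H2-Ab1, and at least 1953-fold higher for H2-Eb1. The lowest tumor was still at least 222-fold above that floor for H2-Eb1. These bounds cover counting error only.

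**Figure D1:**
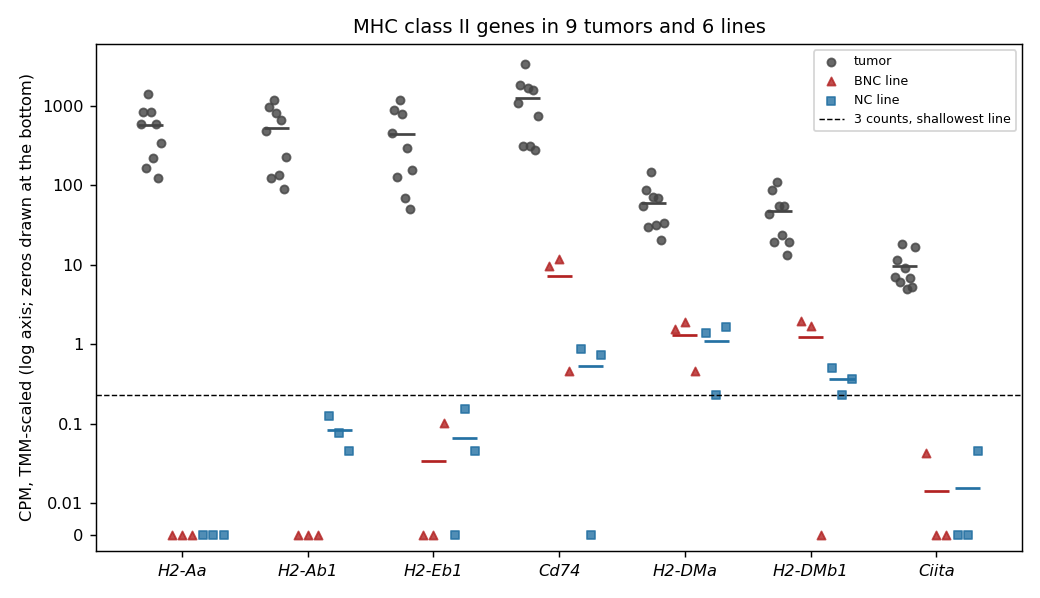
Level of the 7 class II genes in CPM (TMM-scaled, log axis, with zeros drawn at the bottom) in 9 tumors (circles), 3 BNC lines (triangles), and 3 NC lines (squares), with short bars for group means and a dashed line at 3 counts in the shallowest line (0.229 CPM). Every tumor lies above every line for all 7 genes, but how many of all genes tested separate in this way was not counted. JB81 and JB91 hold the 2 highest line values of Cd74.

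Ciita (chromosome 16, 10480059 to 10528418) followed the chains in being nearly confined to tumors. Its level was 4.98, 6.95, and 18.4 CPM in the lowest, median, and highest tumor, and its count was 1 in JB81, 1 in JB93, and 0 in the other 4 lines. The tumor mean of 9.50 ± 4.96 CPM (SD, n = 9) was at least 41.5-fold above the floor. The deepest line allowed Ciita up to 0.127 CPM at that floor, so a low level in lines was not detectable at this depth.

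The invariant chain and the H2-DM genes were read in lines, though far below the tumors. Cd74 (chromosome 18) was the most abundant of the 7, with 279, 1097, and 3356 CPM in the lowest, median, and highest tumor. Lines JB81 and JB91 (BNC) read it at 9.71 and 11.7 CPM and JB97 (BNC) at 0.457 CPM, and the NC lines JB84 and JB93 at 0.880 and 0.732 CPM and JB87 at 0. The log2 fold change (log2FC) of tumors over lines was 9.29 (standard error, SE, 1.10; adjusted p = 9.68e-06 from the quasi-likelihood test of edgeR, Benjamini-Hochberg method).

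H2-DMa, the alpha chain of the peptide editor (chromosome 17, 34119541 to 34139101), had 20.7, 55.4, and 145 CPM in tumors. It was read at 1.57, 1.92, and 0.457 CPM in JB81, JB91, and JB97 and at 1.38, 0.229, and 1.65 CPM in JB84, JB87, and JB93. The log2FC was 5.65 (SE 0.60, adjusted p = 3.79e-06, edgeR).

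H2-DMb1, a beta chain of the editor (chromosome 17, 34153072 to 34160230), had 13.4, 44.0, and 111 CPM in tumors, 1.95, 1.71, and 0 CPM in JB81, JB91, and JB97, and 0.503 CPM in JB84, 0.229 CPM in JB87, and 0.366 CPM in JB93. The log2FC was 6.14 (SE 0.81, adjusted p = 2.49e-05, edgeR). H2-DMb1 and H2-DMb2 are near-identical neighbors, so the split of reads between them is uncertain. The median log2FC of the 7 genes was 9.29, also with the 4 genes at the floor set to their bound, against 0.38 over all genes tested.

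Expressed as a share of the tumor mean, the mean of the 6 lines was 0.315% for Cd74, 1.99% for H2-DMa, and 1.67% for H2-DMb1. For H2-Aa, H2-Ab1, and H2-Eb1 the floor itself was 0.0404%, 0.0440%, and 0.0512% of the tumor mean. These shares describe cells in culture. Whether tumor cells in the animal held more class II mRNA than their cultured counterparts was not tested. Ifng, the gene of the inducing cytokine, was read at 0 to 2.23 CPM in tumors and at 0 counts in all 6 lines.

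Markers of infiltrating cells moved with the class II genes between tumors and lines. All 6 leukocyte markers (Ptprc, Cd52, Cd53, Coro1a, Laptm5, and Vav1) rose, with a summed 430 to 1900 CPM in tumors and 0.127 to 0.916 CPM in lines. Ptprc, which encodes the pan-leukocyte antigen CD45, had at most 1 count in any line. All 7 macrophage markers rose, from a summed 3.21 to 6.07 CPM in lines to 1558 to 5570 CPM in tumors, and C1qa, C1qb, and C1qc were at 0 in all lines. All 6 T cell markers and 5 of 6 B cell markers rose, and Cd3d, Cd3e, Cd3g, Cd4, and Cd8a were at 0 in all lines. Of the dendritic markers 5 of 6 rose, each with at most 3 counts in any line, and Zbtb46, which also occurs outside dendritic cells, did not (13.5 CPM in tumors and 18.3 CPM in lines). Endothelial markers rose in 3 of 4 cases. All 4 skeletal muscle markers rose (4 also without B1 and B2, and 4 with close line pairs summed), with a summed 175 to 39280 CPM in tumors and 0.818 to 5.63 CPM in lines. Among tumors the muscle sum was highest in B1, B19 (36667 CPM), and B45 (28363 CPM) and lowest in B14, the tumor with the most class II mRNA. Of lung epithelial markers 1 of the 2 tested rose, and 0 with close line pairs summed. Mesothelial markers rose in 2 of 8, in 1 without B1 and B2, and fell in none. The part of each cell type in the class II signal of tumors was not tested by this contrast.

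The rest of the pathway divided by role. Of 5 other class II genes 4 rose (H2-DMb2, H2-Oa, H2-Ob, and H2-Eb2), each with at most 1 count in any line, and 3 rose without B1 and B2. H2-DMb2, the second DM beta chain, had 10.3 ± 7.89 CPM (SD, n = 9) in tumors, at least 44.8-fold above the floor, and H2-Oa, a chain of the DM modulator H2-DO, 3.51 ± 3.89 CPM, at least 15.3-fold above it. H2-Ea-ps did not pass the threshold. All 6 genes of antigen processing rose, 5 of them with close line pairs summed. Ctss, the cathepsin that trims the invariant chain in antigen-presenting cells, had 669 ± 372 CPM (SD, n = 9) in tumors and at most 1 count in any line, at least 2923-fold above the floor. Lgmn, an endosomal protease, had 547 ± 170 CPM in tumors and 47.5 ± 36.0 CPM (SD, n = 6) in lines, a log2FC of 4.01 (SE 0.25, adjusted p = 3.87e-08, edgeR).

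Costimulatory genes differed among themselves. Cd86 had 29.4 CPM on average in tumors and 0 counts in all lines, at least 128-fold above the floor, and Cd40 had 11.01 CPM and at most 1 count, at least 48.1-fold above it. Cd80, the other ligand of CD28, did not pass the threshold, with a mean of 10.2 CPM in tumors and 19.6 CPM in lines. Its tumor mean rested on B27, with 74.3 CPM against 0.773 to 3.82 CPM in the other 8 tumors. In the lines it was between 2.74 and 37.6 CPM, in libraries with at most 2 counts of any classical chain. By DESeq2 it was called lower in tumors (1 of the 3 genes).

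The proteins that Ciita docks on were not called. Of the 7 promoter-binding factors (Rfx5, Rfxap, Rfxank, Creb1, Nfya, Nfyb, and Nfyc) 0 passed the threshold in either direction by edgeR or DESeq2, and 5 had an unadjusted p under 0.05 (edgeR). Among all 15675 genes tested, 10204 had an unadjusted p under 0.05 (edgeR). Nfyb, a subunit of NF-Y, had a mean of 25.9 CPM in tumors and 44.9 CPM in lines, a log2FC of -0.71 (SE 0.19, adjusted p = 0.0048), which missed the 2-fold limit. Creb1 had 54.2 and 86.7 CPM, a log2FC of -0.66 (SE 0.18, adjusted p = 0.0060). Rfx5, the DNA-binding subunit of RFX, had 17.0 CPM in tumors and 20.3 CPM in lines (log2FC -0.21, SE 0.33). Thus lines contained mRNA of all 7 factors and no more than 1 count of Ciita.

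Of 7 genes of the interferon gamma axis 5 rose and 0 fell, 5 without B1 and B2 and 4 with close line pairs summed. The receptor genes Ifngr2 (101 CPM in tumors and 37.2 CPM in lines, log2FC 1.49, SE 0.22, adjusted p = 6.70e-05, edgeR) and Ifngr1 (132 and 40.3 CPM, log2FC 1.80, SE 0.28, adjusted p = 8.96e-05) had the smallest p-values. Ifng, Irf1, and Socs1 also rose, and the kinase genes Jak1 and Jak2 did not pass. In lines the receptors and kinases were read at means of 37.2 to 239 CPM.

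**Figure D2:**
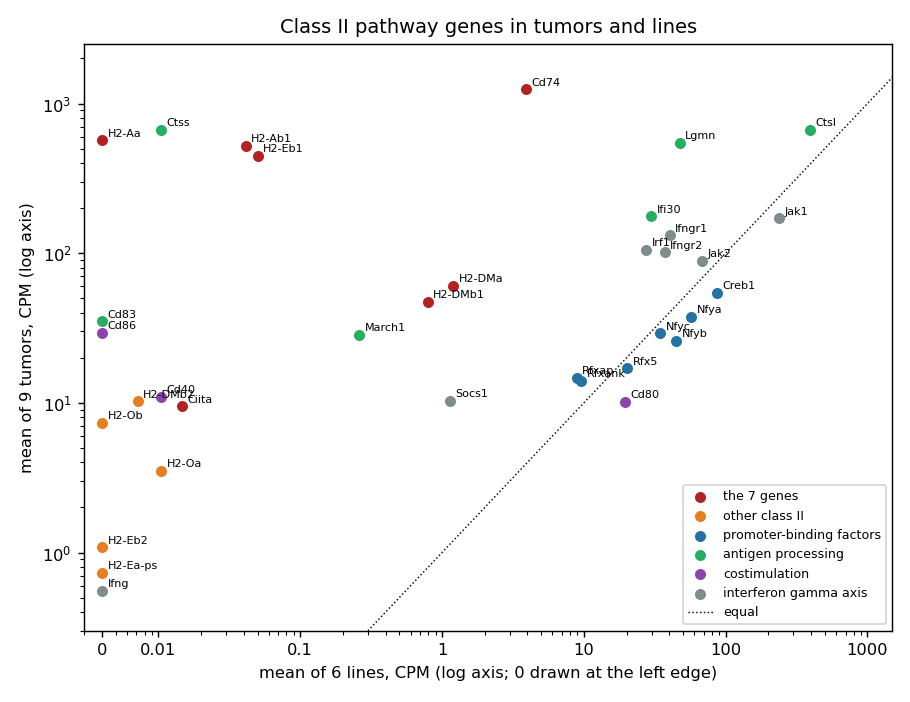
Mean level in 9 tumors (vertical, CPM, log axis) against the mean in 6 lines (horizontal, CPM, log axis, zeros drawn at the left edge) for the 7 class II genes and the lists of related genes, with a dotted line of equal levels. The class II chains, Ciita, Ctss, and Cd86 lie at the left near 0 in lines, while the 7 promoter-binding factors lie along the line of equal levels.

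Levels were compared between genes per kilobase of exon (CPM per kb, with the union of GENCODE M21 exons). Cd74 was highest with 740 ± 598 CPM per kb (SD, n = 9 tumors), followed by H2-Eb1 (230 ± 214), H2-Ab1 (203 ± 158), H2-Aa (149 ± 109), H2-DMb1 (28.3 ± 20.1), H2-DMa (17.5 ± 11.3), and Ciita (0.996 ± 0.520). Cd74 exceeded H2-Eb1 in 9 of 9 tumors, H2-Aa exceeded H2-DMb1 in 9 of 9, and H2-DMa exceeded Ciita in 9 of 9. H2-Eb1 exceeded H2-Ab1 in only 5 of 9 tumors and H2-Ab1 exceeded H2-Aa in 7 of 9, so the 3 chains had no fixed order. H2-DMb1 exceeded H2-DMa in 9 of 9 tumors by 1.17 to 2.06 times. The length of H2-Aa (3798 bases of exon) counts every annotated isoform, which lowers its value per kilobase.

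The tumors differed widely in class II mRNA, and for 6 of the genes they differed in much the same way. Between the lowest and highest tumor H2-Eb1 varied 23.6-fold, H2-Ab1 13.1-fold, Cd74 12.04-fold, H2-Aa 11.3-fold, H2-DMb1 8.32-fold, and H2-DMa 7.01-fold, and Ciita only 3.69-fold. B28 was lowest for 6 genes and B14 highest for all 7. The 6 genes without Ciita had Pearson r of 0.93 to 0.99 with each other (15 pairs, log2(CPM + 1), 9 tumors sharing 1 scaling), and Ciita had r of 0.53 to 0.70 with them. Summed over the 3 chains, B28, B13, and 22 had 265, 415, and 424 CPM, B45 had 719 CPM, B1 and B27 had 1541 and 1542 CPM, and B19, B2, and B14 had 2441, 2682, and 3784 CPM. Thus the 3 lowest tumors were well apart from the highest ones, with B45, B1, and B27 between. Of the 3 lowest, B13 is the tumor with 10.8% of its counts on Gm42418 and Lars2, and B1 had 38.5% on them. B2, among the highest, is the tumor with lung epithelial transcripts at a summed 45613 CPM. The part of these in the class II levels of the 3 tumors was not tested. Columns could not be tied to BNC or NC tumors. The part of the Bap1 genotype in the differences between tumors, and in the correlations below, was therefore not tested.

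**Figure D3:**
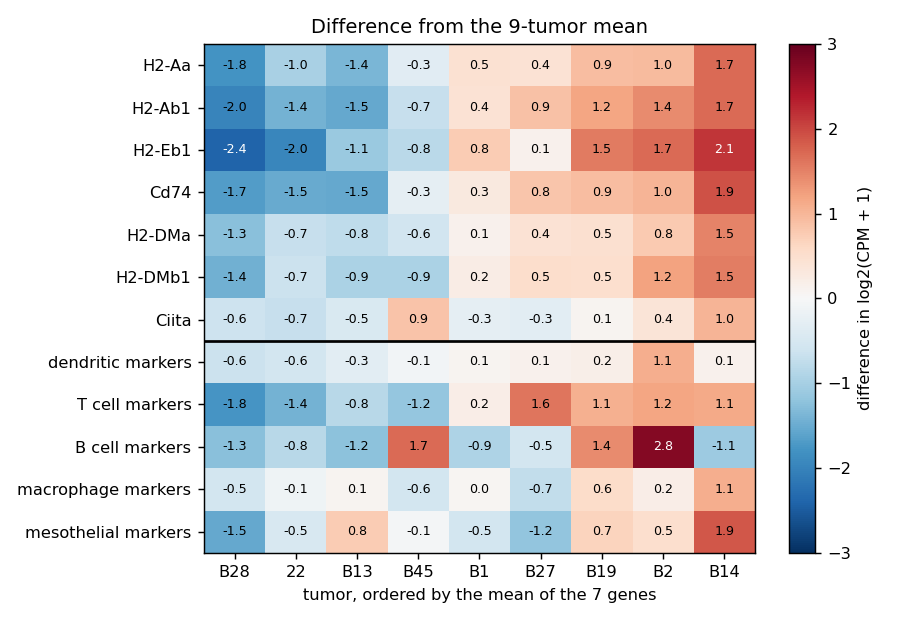
Difference of each tumor from the mean of the 9 tumors, in log2(CPM + 1), for the 7 class II genes (above the line) and for the mean of 5 marker lists (below it), tumors ordered by the mean of the 7 genes. B28, 22, and B13 are low and B14 high for every gene, and Ciita departs from the other 6 genes in B45.

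Whether class II levels go with markers of infiltrating cells was asked over the 9 tumors, for 7 genes and 5 marker lists (35 pairs, log2(CPM + 1), exact permutation tests, two-sided, Benjamini-Hochberg adjusted over the pairs). With T cell markers, 6 of 7 genes passed an adjusted p of 0.05, with r between 0.88 and 0.95, and Ciita did not (r = 0.40, adjusted p = 0.316). H2-Ab1 had the highest value (r = 0.95, exact p = 0.0010, adjusted p = 0.0144; Spearman's rho = 0.83, exact p = 0.0083, adjusted p = 0.0322). Without the 2 tumors farthest from the median score (22 and B28), r for those 6 genes was between 0.77 and 0.90. In the T cell score 4 tumors (B28, 22, B45, and B13) lay at or below 1.87 and 5 at or above 2.92, and neither set reaches the 6 tumors needed for an r of its own. The same 4 tumors had the least H2-Ab1, at 90.3 to 224 CPM against 486 to 1180 CPM in the other 5. These r thus cannot tell a graded relation from a difference between the sets. Leaving out 22 and B28 keeps both sets. The 6 genes had r of 0.93 to 0.99 with each other, so their passes are not separate results.

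With dendritic markers, 5 of 7 genes passed (H2-Aa, H2-Ab1, H2-Eb1, H2-DMb1, and Cd74), with r between 0.75 and 0.81, and without B2 and B28 their r was between 0.72 and 0.90. This score includes Zbtb46, which also occurs outside dendritic cells, and genes with few reads. Their counts in the lowest tumor were 2 for Cd209a, 4 for Xcr1, 6 for Clec9a, and 7 for Flt3. By Spearman's rho, 6 genes passed with dendritic markers and 5 with T cell markers. H2-DMa had r = 0.73 (exact p = 0.0197, adjusted p = 0.0573) and rho = 0.88 (exact p = 0.0031, adjusted p = 0.0269). For Ciita r was 0.53 (exact permutation, adjusted p = 0.207).

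The macrophage, B cell, and mesothelial lists gave no pair past the adjusted threshold by either coefficient. With macrophage markers r was 0.46 to 0.70, and without B14 and B27 it was 0.61 to 0.77 for the 6 genes other than Ciita and -0.0071 for Ciita. With B cell markers r was 0.27 to 0.51, and 0.17 to 0.47 without B2 and B45. With mesothelial markers r was 0.50 to 0.67, which fell to between -0.09 and 0.30 without B14 and B28. These p-values miss the threshold with 9 tumors and do not show that no relation exists. The count of 11 pairs past the threshold depended on single tumors: it was 0 without B1 (12 pairs at an unadjusted p under 0.05), 0 without B28 (10 pairs), 7 without 22, 18 without B27, and 0 without B1 and B2 together (12 pairs). All tumor columns share 1 prefix, so no value within a prefix differs from these.

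**Figure D4:**
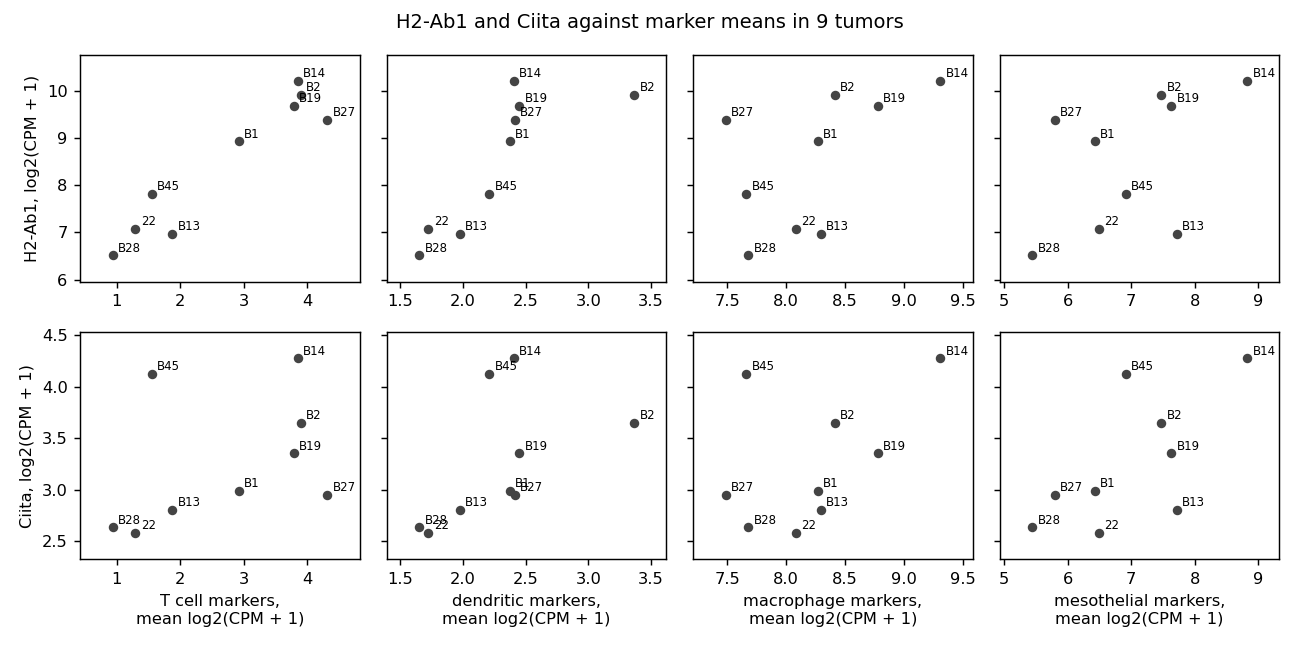
Level of H2-Ab1 (upper row) and Ciita (lower row) in log2(CPM + 1) against the mean log2(CPM + 1) of T cell, dendritic, macrophage, and mesothelial markers in 9 labelled tumors. H2-Ab1 rises with the T cell score (r = 0.95), whereas for Ciita tumor B45 lies high at a low T cell score (r = 0.40).

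Class II mRNA did not keep a constant ratio to leukocyte or macrophage markers. The 3 chains amounted to 0.494 times the summed leukocyte markers in B28, 0.610 in B13, 0.660 in 22, and 0.812 in B27, and to 1.67 in B45, 1.77 in B1, 2.14 in B2, 2.43 in B19, and 2.69 in B14. B27 had the highest leukocyte sum (1900 CPM) and the highest T cell sum (225 CPM) but the lowest macrophage sum (1558 CPM), and its chain sum equalled the median of the tumors within 2 CPM. Relative to macrophage markers the chains ranged from 0.139 times in B28 to 0.990 times in B27. Mrc1, the mannose receptor of a subset of macrophages, was highest in 22 (692 CPM) and B28 (573 CPM), which were among the 3 lowest tumors for every chain, and 95.1 to 392 CPM in the other 7.

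Ciita was uneven relative to H2-Ab1. Per 1000 reads of H2-Ab1, the reads of Ciita numbered 10.1 in B27, 11.2 in B19, 12.03 in B2, 14.3 in B1, and 15.6 in B14, and 37.3 in 22, 48.3 in B13, 57.8 in B28, and 73.6 in B45. The 4 tumors with the higher values were the 4 with the least H2-Ab1, the denominator of the ratio. The same 4 tumors were highest for H2-DMa, with 150 to 238 reads per 1000 reads of H2-Ab1 in those 4 tumors and 86.9 to 123 in the other 5. In B45 the level of Ciita was 16.5 CPM, second only to B14 (18.4 CPM), while its H2-Ab1 was 224 CPM against 1180 CPM in B14.

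The A chains and the invariant chain kept closer proportions than the E beta chain. Reads of Cd74 per read of H2-Ab1 were between 1.89 and 3.28 and of H2-Aa between 0.875 and 1.66. For H2-Eb1 per read of H2-Ab1 the values were 0.944, 0.917, 1.01, 1.02, and 0.969 in B1, B2, B13, B14, and B19, and 0.514, 0.442, 0.562, and 0.688 in 22, B27, B28, and B45. The same 4 tumors were the only ones with more than 1 read of H2-Ea-ps, the E alpha gene, which the C57BL/6 reference annotates as a pseudogene. Its level was 0.811 CPM in 22, 1.58 CPM in B27, 0.601 CPM in B28, and 3.52 CPM in B45, against 0.0571 CPM in B13 and 0 counts in B1, B2, B14, and B19. Reads of the mixed-background mice were mapped to the C57BL/6 reference, and the part of strain differences in these counts was not tested. H2-Ea-ps and the ratio were set side by side after their values had been seen.

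**Figure D5:**
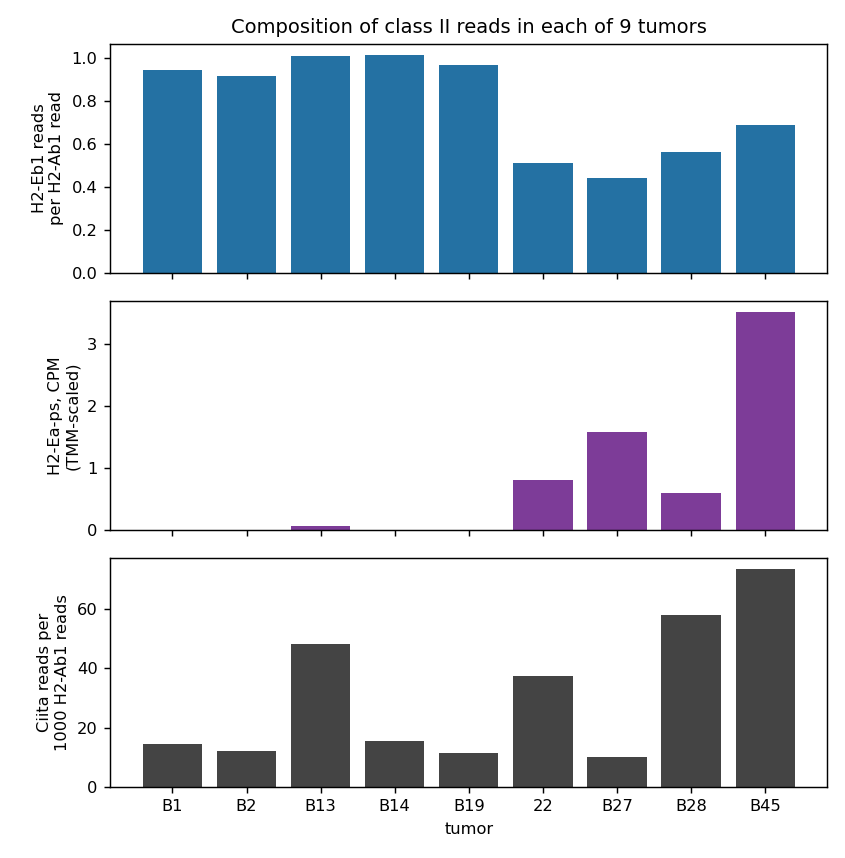
Bars, from 0, for each of the 9 tumors of H2-Eb1 reads per H2-Ab1 read (top), H2-Ea-ps in CPM (middle), and Ciita reads per 1000 H2-Ab1 reads (bottom). Tumors 22, B27, B28, and B45 have the 4 lowest H2-Eb1 ratios (0.442 to 0.688) and H2-Ea-ps at 0.601 CPM or more.

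The H2-DO chains, which restrain H2-DM and are best known from B cells, were highest in B2, B45, and B19, of which B2 and B19 were also among the 3 tumors with the most classical chain mRNA. H2-Ob was 30.2 CPM in B2, 12.5 CPM in B45, and 9.47 CPM in B19, and between 1.06 and 3.54 CPM in the other 6. H2-Oa was 12.7 CPM in B2, 6.06 CPM in B19, and 3.52 CPM in B45, and between 0.416 and 3.06 CPM in the others. B2, B45, and B19 had the highest summed B cell markers (203, 96.2, and 79.6 CPM), and the other 6 tumors had 5.77 to 13.7 CPM. B14, highest for all 7 members, had 8.93 CPM of B cell markers.

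Genes whose level across tumors was most like the mean of the 7 genes were ranked by Pearson r of log2(CPM + 1) over the 9 tumors among 15666 genes, as a description. The first 10 were Itgae (r = 0.97), Ubash3a (0.96), Gimap7 (0.96), Zfp456 (0.95), Susd3 (0.95), Cd6 (0.95), Ggt1 (0.95), Rnf130 (0.94), Tbx21 (0.93), and Lck (0.93). Their levels differed, from a median of 0.773 CPM for Ubash3a to 80.1 CPM for Rnf130.

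Between BNC and NC lines no class II gene was called. Only Cd74, H2-DMa, and H2-DMb1 had enough reads to be tested, and 0 of the 3 passed by edgeR or DESeq2, where 0.444% of 12376 genes tested were higher in BNC lines and 0.654% lower (edgeR, adjusted p under 0.01 and over 2-fold). The mean of Cd74 was 7.28 ± 5.99 CPM for BNC (SD, n = 3) and 0.538 ± 0.471 CPM for NC, a log2FC, BNC over NC, of 3.67 (SE 1.42, unadjusted p = 0.0416 and adjusted p = 0.126 by edgeR). The groups overlapped, since JB97 lay below JB84 and JB93. The reads were in JB81 (229 counts) and JB91 (273 counts), the pair of lines that could hardly be told apart genome-wide, against 0 to 16 counts in the other 4. Over 12 alternatives the adjusted p of Cd74 was between 0.0252 (DESeq2) and 0.576 (close pairs summed, edgeR).

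H2-DMb1 followed the same lines, with 46 and 40 counts in JB81 and JB91 and 0 to 8 in the others (log2FC 1.67, SE 1.26, adjusted p = 0.368, edgeR). H2-DMa did not, with 37 and 45 counts in JB81 and JB91 and 22 and 36 in JB84 and JB93 (log2FC 0.22, SE 0.81, adjusted p = 0.863). In JB81 and JB91 Cd74 averaged 10.7 CPM, which was 0.861% of the tumor mean and 3.84% of the lowest tumor. Those lines had 1 and 0 counts of Ciita and 0 counts of each classical chain. Csf1r, a macrophage receptor gene, was read at 3.35 and 3.38 CPM in them and at 0 to 0.916 CPM in the other lines, whereas C1qa, C1qb, and C1qc were at 0 in all lines. The part of residual macrophages in this Cd74 signal was not tested.

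Of related genes, 2 of the 3 tested genes of antigen processing were lower in BNC lines. Lgmn had 14.8 ± 2.005 CPM in BNC (SD, n = 3) and 80.1 ± 6.63 CPM in NC lines, a log2FC of -2.49 (SE 0.16, adjusted p = 0.0039, edgeR). Ifi30, the thiol reductase of endosomes, had 8.58 ± 1.86 and 51.1 ± 8.19 CPM, a log2FC of -2.62 (SE 0.23, adjusted p = 0.0061). The lines of both groups did not overlap for either gene, but how many of all genes tested separate in this way was not counted. Each group also holds a pair of near-identical lines. No gene at all was called with close pairs summed, nor without JB91, JB93, or JB84 in turn, so both calls were lost in those fits (1508 to 2897 genes at an unadjusted p under 0.05). Of the 7 promoter-binding factors 0 were called by edgeR or DESeq2 (2 at an unadjusted edgeR p under 0.05), Nfyb (log2FC -0.84, adjusted p = 0.0708) and Rfxap (-0.66, adjusted p = 0.0878) having the smallest p-values. Of the 6 tested genes of the interferon gamma axis 0 were called by edgeR (3 at an unadjusted p under 0.05) or DESeq2, Ifngr1 (log2FC -0.90, adjusted p = 0.0905) and Irf1 (-0.96, adjusted p = 0.108) having the smallest p-values. Among all 12376 genes tested between lines, 4408 had an unadjusted p under 0.05 (edgeR). Cd80 had 11.3 CPM in BNC and 27.9 CPM in NC lines (adjusted p = 0.262).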

How the data were processed

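Poly-A RNA of 9 tumors and 6 lines was analysed. What the authors deposited are raw counts of reads for each Ensembl gene. They mapped 65-base single-end reads to mm10 with TopHat 2.0.12, discarded reads with mapping quality under 10 and nonprimary alignments, and counted with HTSeq-count. The strand setting is not given in the sources used here, so antisense and overlapping genes are uncertain. Line columns were grouped by the line names used in the study, and the 9 remaining columns were taken as the 9 labelled tumors. The 14 columns of DNA log2 values were not used. Symbols were found for 98.5% of 27197 identifiers.

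Tests were run with edgeR 4.0.16 (R 4.3.3). Genes passing filterByExpr (minimum count 10) were scaled by TMM and compared by the quasi-likelihood test, without covariates. For tumors against lines, groups tumor, BNC, and NC were fitted together and tumors set against the mean of both line groups, and BNC and NC lines were also compared in a fit of their own. A call needed a Benjamini-Hochberg adjusted p under 0.01 and over 2-fold change. The standard error is the log2 fold change divided by the square root of F. A fold against lines with at most 3 counts is a bound against 3 counts in the shallowest line. The study calls its BNC tumors independent, but the labels do not tie libraries to separate animals or cultures, so p-values measure the spread between these libraries, which may be technical. Correlations used a pseudocount of 1 CPM and all 362880 pairings in Python 3.11.15. The fits were tested on simulated data. Alternatives were DESeq2 1.42.0, scaling by library size alone, keeping all genes with 1 count, close line pairs summed, a replicate block, and the column-name prefix. Further ones were 1 line group at a time, a pseudocount of 0.1 CPM, and leaving out each library.

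Named genes are the 7 members, the 2 smallest p-values of each related list and comparison, and the 10 genes most like the members. The members and lists were chosen with earlier results of these data known. Any further gene was named with its values in view. A further gene first placed on the interferon gamma list was taken off it and is not reported here, so the counts of that list are of the other 7.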

Additional observations from a re-analysis of the deposited data

Results flagged for a closer look

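Among the levels of the 7 class II genes and 6 count ratios in the 9 tumors, 1 value stood apart from the rest. For Cd74 the gap between B14 (3356 CPM) and the next tumor, B2 (1816 CPM), was 0.500 of the whole range, above Dixon's 95% critical value for 9 samples. Chance gives such a gap in about 1 in 20 groups of normally distributed values. Here 7 levels and 6 ratios were checked, and CPM was not log-transformed, so the rate for this search was not known.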

How the results depend on the processing

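Tumors against lines, all 7 genes kept their direction and call under 22 alternatives. For H2-Aa, H2-Ab1, H2-Eb1, and Ciita, at or near 0 counts in all lines, no other direction was possible. The count of all genes called, 6220, was 3578 against NC lines only and 5368 to 6488 with 1 library left out. Without TMM the median log2 fold change of all genes moved from 0.38 to 0.27. Between lines, the count of 136 was 1825 by DESeq2, 0 with close pairs summed (1508 genes at an unadjusted p under 0.05), and 1 with the column-name prefix as covariate. With 1 line left out it was 0 to 2574 (0 without JB91, JB93, or JB84, 1 without JB81, 984 without JB97, and 2574 without JB87). No class II gene was called in any of these. The log2 fold change of H2-DMa, 0.22, was -0.22 to 0.62 with 1 line left out, reversed to -0.13 without JB91 and -0.22 without JB87. With the replicate block 0 genes were called (2146 at an unadjusted p under 0.05). Samples of the same number had r of deviations between -0.08 and 0.13, so the number did not pair them. The 11 correlations past the threshold were 0 to 18 with 1 tumor left out and 0 without B1 and B2 together, an alternative added after seeing the data, which leaves 7 tumors. The cause of the other shifts was not tested. Depth limits Ciita and the chains in lines to the floor of 3 counts.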
